A study of Mus musculus with 12 samples.

Results

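Cell division runs through a small set of gene groups. The MCM helicase is loaded on replication origins in G1 and opens DNA in S phase, polymerases with the PCNA clamp copy it, and ribonucleotide reductase and thymidine enzymes supply the building blocks. D and E type cyclins with their kinases release E2F transcription factors, inhibitors such as p21 hold those kinases back, and mitotic kinases, cyclin B and spindle proteins drive chromosome separation. Mouse bone marrow-derived macrophages (BMDMs) divide in culture under the growth factor M-CSF, and LPS, the endotoxin of Gram-negative bacteria, is known to slow that division.

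The genes described here are the 52 cell cycle and DNA replication genes whose symbols were on a list drawn up by function, out of 54446 genes in the deposited RNA-seq table. No measured value entered the rule, but the list was proposed with earlier results of these data known. All 52 were found by symbol and were among the 13773 genes that passed the filter on low counts. They are ordered below in 9 roles. The BMDMs came from femurs and tibias, were grown in RPMI 1640 with serum and M-CSF, and fell into 4 groups of 3 libraries: labelled KO LPS and labelled KO medium, from animals with floxed Nlrc3 alleles and LysM-Cre, and labelled WT LPS and labelled WT medium, from animals with floxed Nlrc3 alleles and no Cre. LPS was given for 12 hours, and the medium groups had none. LysM-Cre is driven from the lysozyme 2 locus, which is active in macrophages and other myeloid cells, so the control cells carried the floxed alleles too. Ages and sexes of the animals were not stated.

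The libraries held 13082947 to 20960505 counts, and 3 counts corresponded to 0.114 to 0.303 CPM. Levels below are TMM-scaled CPM, counts scaled to library size after adjustment by edgeR's TMM factors. A call means a Benjamini-Hochberg adjusted p under 0.05 over the 13773 genes tested. The labels were checked first. Nlrc3 had 13.0, 6.69 and 4.91 TMM-scaled CPM in KO LPS libraries (as labelled), 1.04, 4.32 and 1.71 in those labelled WT LPS, 1.42, 1.21 and 1.11 in those labelled KO medium and 7.31, 12.3 and 7.10 in those labelled WT medium. The targeted gene was therefore higher in libraries labelled KO LPS than in those labelled WT LPS (log2 fold 1.76 ± 0.52 (SE), edgeR adjusted p = 0.0298), and lower in those labelled KO medium than in those labelled WT medium (log2 fold -2.83 ± 0.56 (SE), edgeR adjusted p = 0.00371). It was also lower in labelled WT LPS than in WT medium (log2 fold -1.89 ± 0.53 (SE), edgeR adjusted p = 0.0268). Labelled KO medium over WT LPS was not called (log2 fold -0.94 ± 0.55 (SE), edgeR adjusted p = 0.95). Low Nlrc3 was thus not limited to libraries with a KO label. Nos2, an LPS-induced gene, had 4.51, 1.14 and 0.560 TMM-scaled CPM in those labelled KO LPS, against 2817, 818 and 3306 in libraries labelled WT LPS. It had 3862, 1635 and 2968 in libraries labelled KO medium and 4.39, 3.54 and 5.72 in libraries labelled WT medium. The libraries labelled KO medium thus carried high LPS-responsive transcripts and those labelled KO LPS low ones, against their labels, and every group is named by its label below. Macrophage markers (10 of 10 genes) were above 0 in all 12 libraries, with a sum of 14168 to 33870.3 TMM-scaled CPM. The libraries labelled KO LPS 1 and WT medium 2 resembled each other more than their own groups, with a chi-square per degree of freedom of 36.6 between them. It was 207 and 239 between KO LPS 1 and the others of its group, and 256 and 228 for WT medium 2. Several values below are therefore also given without both. Pairs of WT LPS and KO medium libraries showed the same trait. WT LPS 1 and KO medium 1 were at 27.5, against 232 and 85.7 for WT LPS 1 and 50.9 and 115 for KO medium 1 in their groups. WT LPS 3 and KO medium 3 were at 33.7, against 85.7 and 176 for WT LPS 3 and 115 and 180 for KO medium 3. These were not left out together.

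Among the 52 genes, the helicase subunits Mcm2, Mcm3 and Mcm7 were higher in the libraries labelled KO LPS than in those labelled WT LPS and lower in those labelled KO medium than in those labelled WT medium. The opposite held for Ccnd2, a D cyclin, Cdkn1a, the p21 inhibitor, and Tpx2, a spindle protein. In libraries labelled KO LPS against those labelled WT LPS, 12 members were higher and 4 lower (23.1% and 7.69% of 52), where 10.4% of all genes tested were higher and 13.7% lower, 24.1% in all. Without TMM scaling (library size only) the split was 24 higher and 3 lower, where 25.3% of all genes were called higher and 8.67% lower, 34.0% in all. The median log2 fold of the members was 0.65, beside 0.06 over all genes tested. In libraries labelled KO medium against WT medium, 6 members were higher and 9 lower (11.5% and 17.3%), where 14.0% of all genes were higher and 12.3% lower, 26.3% in all. By library size only these counts were 3 and 22, where 7.77% of all genes were higher and 40.5% lower, 48.2% in all. The member median was -0.43, beside -0.02 over all genes.

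The libraries labelled WT LPS differed from those labelled WT medium in 4 higher and 3 lower members (7.69% and 5.77%), where 11.9% of all genes tested were higher and 6.46% lower, 18.3% in all, and by library size only in 4 higher and 14 lower, where 7.50% and 23.2% of all genes were, 30.7% in all. The member median was -0.41, beside -0.06 over all genes. The libraries labelled KO LPS differed from those labelled KO medium in 16 higher and 6 lower members (30.8% and 11.5%), where 15.1% of all genes were higher and 15.3% lower, 30.4% in all, and by library size only in 31 higher and 3 lower, where 38.6% and 8.55% of all genes were, 47.2% in all. The member median was 0.67, beside 0.04 over all genes. Library size scaling moved the median of all genes to 0.57 for KO LPS over WT LPS, -0.85 for KO medium over WT medium, -0.64 for WT LPS over WT medium and 0.78 for KO LPS over KO medium, and the members' medians there were 1.17, -1.20, -1.01 and 1.40. These 4 comparisons share libraries in pairs and are not independent. In 24 members (46.2%) at least 1 of the 4 comparisons was called, where 38.2% of all genes tested had such a call, and in 28 none was by edgeR. Mcm7, E2f2, Cenpa, Ccnd2, Cdkn1a and Tpx2 were called in all 4.

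**Figure D1:**
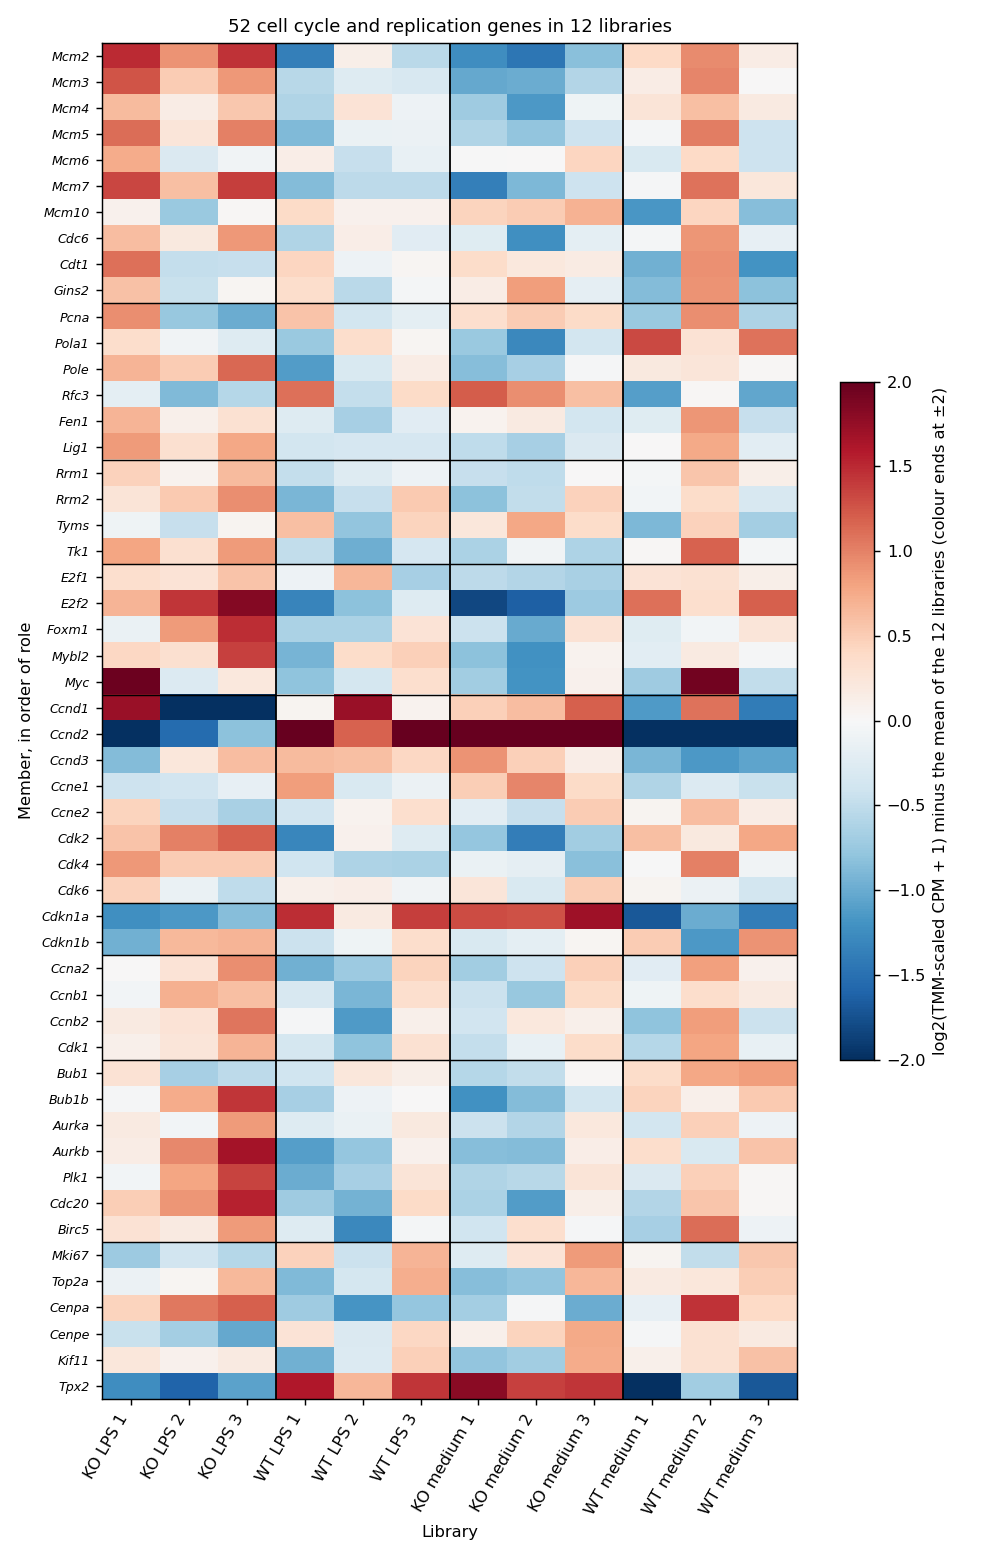
Colour map of the 52 members (rows, in order of role, with black lines between roles) in the 12 libraries (columns, in 4 labelled groups of 3): colour is log2(TMM-scaled CPM + 1) minus the gene's mean over the 12 libraries. Mcm2 and Mcm7 are red in the columns labelled KO LPS and blue in those labelled KO medium, Ccnd2, Cdkn1a and Tpx2 run the other way, and columns KO LPS 1 and WT medium 2 share red at Myc, Ccnd1, Pcna and Cdt1.

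In bulk RNA, fewer cells of a type and less RNA per cell cannot be told apart, so none of these levels is a count of cycling cells. Per length of transcript, the members spanned a wide range: Pcna had the highest mean FPKM over the 12 libraries, 132 FPKM, followed by Cdkn1a with 87.8 FPKM, Cdk4 with 22.3 FPKM, Ccnd1 with 20.1 FPKM and Cdt1 with 13.4 FPKM. The lowest were Pola1 with 0.492 FPKM and Pole with 0.408 FPKM. Of the pair that marks cycling cells, Mcm2 had 2.69 FPKM and Mki67 4.52 FPKM.

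Origin licensing came out with 4 of 10 members higher and 0 lower in libraries labelled KO LPS than in WT LPS, and 0 higher and 4 lower in KO medium than in WT medium. DESeq2 gave the same 4 and 0 and 0 and 4. Of all genes tested, edgeR called 10.4% higher and 13.7% lower in the first comparison, and 14.0% and 12.3% in the second. Mcm2 (chr6:88883474-88898780, minus strand in GRCm38), a subunit of the helicase that is loaded on origins, had 36.9, 24.1 and 35.7 TMM-scaled CPM in KO LPS libraries (as labelled) and 4.25, 13.6 and 8.25 in WT LPS libraries. For Mcm2, values were 4.72, 3.94 and 6.56 in libraries labelled KO medium and 16.9, 25.1 and 14.0 in libraries labelled WT medium. The 3 libraries labelled KO LPS did not overlap those labelled WT LPS, and those labelled KO medium lay below those labelled WT medium. Mcm2 was higher in labelled KO LPS than in labelled WT LPS (log2 fold 1.88 ± 0.41 (SE), edgeR adjusted p = 0.007) and lower in labelled KO medium than in labelled WT medium (log2 fold -1.87 ± 0.42 (SE), edgeR adjusted p = 0.00689). It was higher in labelled KO LPS than in labelled KO medium (log2 fold 2.66 ± 0.43 (SE), edgeR adjusted p = 0.00103), and in labelled WT LPS against labelled WT medium the value was -1.09 ± 0.40, adjusted p = 0.0829. Its group means were 32.2 ± 7.04 in labelled KO LPS, 8.71 ± 4.70 in labelled WT LPS, 5.07 ± 1.35 in labelled KO medium and 18.7 ± 5.79 in labelled WT medium (TMM-scaled CPM, SD, n = 3 each).

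Mcm7 (chr5:138164583-138172422, minus strand), another helicase subunit, had 39.5, 23.2 and 40.6 TMM-scaled CPM in KO LPS libraries (as labelled) and 7.73, 10.1 and 10.1 in WT LPS libraries. For Mcm7, values were 5.19, 7.57 and 11.0 in libraries labelled KO medium and 14.8, 33.1 and 17.6 in libraries labelled WT medium. Its labelled KO LPS and WT LPS libraries did not overlap (log2 fold 1.88 ± 0.39 (SE), edgeR adjusted p = 0.00506), nor did labelled WT LPS and WT medium (log2 fold -1.22 ± 0.38 (SE), edgeR adjusted p = 0.0425). Without KO LPS 1 and WT medium 2, which stand apart, the second difference was -0.84 with adjusted p = 0.0981. The Mcm7 call in WT LPS over WT medium was lost without any 1 of WT LPS 1, WT LPS 2, WT LPS 3, WT medium 2, WT medium 3 (adjusted p = 0.0617 to 0.118). In labelled KO medium over WT medium Mcm7 was at -1.46 ± 0.38, adjusted p = 0.016. The Mcm7 call in KO medium over WT medium was lost without KO medium 1 (adjusted p = 0.0639). Mcm3 had 66.2, 39.2 and 50.4 TMM-scaled CPM in KO LPS libraries (as labelled) and 18.1, 22.7 and 21.5 in WT LPS libraries. For Mcm3, values were 12.9, 13.1 and 17.7 in libraries labelled KO medium and 30.2, 54.3 and 27.3 in libraries labelled WT medium. All Mcm3 values labelled KO LPS lay above those labelled WT LPS (1.32 ± 0.31, adjusted p = 0.0103) and those labelled KO medium below those labelled WT medium (-1.35 ± 0.31, adjusted p = 0.00867). Mcm5 was called in KO LPS over WT LPS at 1.23 ± 0.41, adjusted p = 0.0456, and Mcm4 was called lower in KO medium than in WT medium (adjusted p = 0.0467). The Mcm5 call in KO LPS over WT LPS was lost without any 1 of KO LPS 1, KO LPS 3, WT LPS 1, WT LPS 2, WT LPS 3 (adjusted p = 0.0606 to 0.151). The Mcm4 call in KO medium over WT medium was lost without any 1 of KO medium 1, KO medium 2, WT medium 1, WT medium 2, WT medium 3 (adjusted p = 0.0742 to 0.133). Mcm4 also lost this call in a fit with a covariate for Xist, the X inactivation transcript (adjusted p = 0.0632).

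Not every licensing gene followed the helicase subunits. Mcm6 had 99.5, 48.2 and 56.3 TMM-scaled CPM in KO LPS libraries (as labelled) and 64.9, 42.8 and 53.2 in WT LPS libraries. For Mcm6, values were 58.7, 59.5 and 80.5 in libraries labelled KO medium and 48.0, 78.7 and 44.5 in libraries labelled WT medium. The Mcm6 groups overlapped. Mcm10, which helps to activate the helicase, had 7.55, 3.83 and 7.16 TMM-scaled CPM in KO LPS libraries (as labelled) and 9.55, 7.57 and 7.51 in WT LPS libraries. For Mcm10, values were 9.99, 10.5 and 12.1 in libraries labelled KO medium and 2.61, 9.85 and 3.47 in libraries labelled WT medium. Its libraries labelled KO medium lay above those labelled WT medium. That difference was 1.04 ± 0.46, adjusted p = 0.113, short of the threshold. Cdc6, a loader of the helicase, had 4.77, 3.30 and 5.86 in labelled KO LPS, 1.48, 3.15 and 2.23 in labelled WT LPS, 2.20, 0.606 and 2.30 in labelled KO medium and 2.69, 5.97 and 2.38 in labelled WT medium, and Gins2, a subunit of the complex that binds the active helicase, ranged from 4.70 to 18.4 over the 12 libraries. Neither passed in any of the 4 comparisons by edgeR.

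E2F factors are known to bind G1 and S phase promoters, so the letters TTTGGCGC, TTTCGCGC, TTTCCCGC and TTTGCCGC, which resemble E2F sites, were searched on both strands in the 250 bases before the start in RefSeq promoters (GRCm38.p6). Promoters were found for 41 of the 52 members. The letters were in 8 of 41 members (19.5%), against 2.16% of 27025 genes with a promoter. The windows of these 8 members are shown because the same letters occur in MCM genes and in other members of several roles. Capitals mark 1 match per member, in the orientation of the gene, so that a motif on the minus strand reads as its reverse complement. Mcm5 and Mcm6 each held a further match that overlaps the capitals and is partly in lower case. Mcm6 also held another TTTGGCGC, 47 bases before the start, outside the window shown.
Mcm5, chr8:75109349-75109378, plus strand: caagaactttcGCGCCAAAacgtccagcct
Mcm6, chr1:128359797-128359826, minus strand: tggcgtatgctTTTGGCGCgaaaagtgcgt
Mcm7, chr5:138172030-138172059, minus strand: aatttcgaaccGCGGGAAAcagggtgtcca
Cdc6, chr11:98908002-98908031, plus strand: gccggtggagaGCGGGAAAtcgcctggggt
Pola1, chrX:93632275-93632304, minus strand: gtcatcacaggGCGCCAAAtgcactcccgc
Rfc3, chr5:151651209-151651229, minus strand: acgtcgcacgcTTTCGCGCtc
Cdk2, chr10:128705173-128705202, minus strand: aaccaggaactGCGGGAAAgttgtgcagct
Cdk1, chr10:69353025-69353054, minus strand: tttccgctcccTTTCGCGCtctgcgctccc
These genes did not share a direction of change: Mcm5, Mcm7, Pola1 and Cdk2 in labelled KO medium over labelled WT medium were at -0.97, -1.46, -2.26 and -1.57 on the log2 scale (Mcm5 not called, the others called), Rfc3 was higher by 1.62, and Mcm6, Cdc6 and Cdk1 were at 0.22, -1.09 and -0.18 without a call.

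A second motif, TTTGAA, resembles the CHR element known from promoters of late cell cycle genes, where it often stands near a CCAAT box. TTTGAA was in 9 of 41 members (22.0%), against 18.3% of all promoters of the same length, and CCAAT in 28 of 41 (68.3%), against 37.5%. Both motifs stood in 1 promoter window in 8 members (19.5%), against 6.45%. Windows are shown for the 2 genes that mark cycling cells, Mcm2 and Mki67, and for Cdk1, whose promoter held both motif kinds. Each has 1 TTTGAA in capitals. Another TTTGAA stood 98 bases before the start in Mki67 and 15 bases before it in Cdk1.
Mcm2, chr6:88898834-88898861, minus strand: gggctcagcctTTTGAAagctgtgggcg
Mki67, chr7:135716479-135716506, minus strand: tagcgccagaaTTTGAAccgccgttttg
Cdk1, chr10:69352967-69352994, minus strand: tgattggctccTTTGAAcgtctacgtgc
Mcm2 was called in 3 of the 4 comparisons and neither Mki67 nor Cdk1 in any. A match is a description of letters only.

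DNA synthesis factors had 2 of 6 members higher and 0 lower in labelled KO LPS than in labelled WT LPS, and 1 of each in labelled KO medium against WT medium. The shares were 33.3% and 0%, against 10.4% and 13.7% of all genes tested, and 16.7% each, against 14.0% and 12.3%. Lig1 (chr7:13277283-13311433, plus strand), the ligase that joins Okazaki fragments, had 28.2, 19.2 and 26.8 TMM-scaled CPM in KO LPS libraries (as labelled) and 11.6, 11.8 and 11.9 in WT LPS libraries. For Lig1, values were 10.4, 9.28 and 12.3 in libraries labelled KO medium and 15.4, 26.5 and 13.0 in libraries labelled WT medium. The groups labelled KO LPS and WT LPS did not overlap (log2 fold 1.07 ± 0.30 (SE), edgeR adjusted p = 0.0219), nor did KO LPS and KO medium (log2 fold 1.21 ± 0.30 (SE), edgeR adjusted p = 0.01). Pole, the catalytic subunit of the leading strand polymerase, was higher in labelled KO LPS than in labelled WT LPS (1.39 ± 0.47, adjusted p = 0.0477), from 13 to 214 counts per library, and lost the call with DESeq2 size factors in edgeR (adjusted p = 0.0542). The Pole call in KO LPS over WT LPS was lost without any 1 of KO LPS 1, KO LPS 2, KO LPS 3, WT LPS 1, WT LPS 2 (adjusted p = 0.0536 to 0.16). The Lig1 call in KO LPS over WT LPS was lost without any 1 of KO LPS 3, WT LPS 1, WT LPS 3 (adjusted p = 0.0675 to 0.0787). Pola1, the catalytic subunit of the polymerase that starts each strand, had 4.30, 2.95 and 2.46 TMM-scaled CPM in KO LPS libraries (as labelled) and 1.48, 4.32 and 3.27 in WT LPS libraries. For Pola1, values were 1.49, 0.706 and 2.22 in libraries labelled KO medium and 9.39, 4.09 and 7.85 in libraries labelled WT medium. Its libraries labelled KO medium were the lowest of its labelled pair (log2 fold -2.26 ± 0.53 (SE), edgeR adjusted p = 0.00905).

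Rfc3, a subunit of the loader of the PCNA clamp, went the other way. It had 17.8, 10.6 and 13.5 TMM-scaled CPM in KO LPS libraries (as labelled) and 45.3, 14.4 and 26.9 in WT LPS libraries. For Rfc3, values were 48.8, 40.1 and 31.5 in libraries labelled KO medium and 8.97, 21.0 and 9.44 in libraries labelled WT medium. Libraries labelled KO medium exceeded those labelled WT medium (1.62 ± 0.45, adjusted p = 0.0205), and libraries labelled KO LPS lay below those labelled KO medium (-1.52 ± 0.45, adjusted p = 0.0235). Both calls were lost by library size only (adjusted p = 0.0739 and 0.0986). The Rfc3 call in KO medium over WT medium was lost without any 1 of KO medium 1, KO medium 2, WT medium 1, WT medium 3 (adjusted p = 0.0572 to 0.086). The Rfc3 call in KO LPS over KO medium was lost without any 1 of KO LPS 2, KO LPS 3, KO medium 1, KO medium 2 (adjusted p = 0.0573 to 0.0946). Rfc3 also lost this call with the Xist covariate (adjusted p = 0.07). Pcna, the clamp, and Fen1, the flap nuclease of Okazaki fragments, were not called in any of the 4 comparisons by edgeR. Pcna had 557, 172 and 146 TMM-scaled CPM in KO LPS libraries (as labelled) and 432, 226 and 254 in WT LPS libraries. For Pcna, values were 368, 415 and 380.1 in libraries labelled KO medium and 174, 552 and 189 in libraries labelled WT medium. KO LPS 1, WT LPS 1 and WT medium 2 were the highest of their groups, and the 3 libraries labelled KO medium lay close together. Pcna shares sequence with its pseudogenes Pcna-ps1 and Pcna-ps2, Fen1 overlaps Tmem258, and strand use in counting was not given in the sources used here, so their counts are uncertain.

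Nucleotide supply had 1 of 4 members called in labelled KO LPS over WT LPS (25%, where 24.1% of all genes tested were called). Tk1 (chr11:117815526-117826092, minus strand), thymidine kinase, had 9.33, 6.47 and 9.74 TMM-scaled CPM in KO LPS libraries (as labelled) and 3.21, 2.02 and 3.72 in WT LPS libraries. For Tk1, values were 2.83, 4.64 and 2.90 in libraries labelled KO medium and 5.04, 12.5 and 4.80 in libraries labelled WT medium. Labelled KO LPS libraries were all above labelled WT LPS ones (log2 fold 1.52 ± 0.44 (SE), edgeR adjusted p = 0.0258), and above those labelled KO medium (log2 fold 1.30 ± 0.43 (SE), edgeR adjusted p = 0.0401). The Tk1 call in KO LPS over WT LPS was lost without any 1 of KO LPS 3, WT LPS 1, WT LPS 2, WT LPS 3 (adjusted p = 0.0554 to 0.0791). The Tk1 call in KO LPS over KO medium was lost without any 1 of KO LPS 1, KO LPS 2, KO LPS 3, KO medium 1, KO medium 3 (adjusted p = 0.0564 to 0.135). Tk1 overlaps Afmid. Rrm1, the large subunit of ribonucleotide reductase, had 46.4, 35.1 and 52.2 TMM-scaled CPM in KO LPS libraries (as labelled) and 23.6, 27.8 and 31.2 in WT LPS libraries. For Rrm1, values were 23.9, 23.1 and 33.4 in libraries labelled KO medium and 32.3, 49.4 and 36.4 in libraries labelled WT medium. Its difference between labelled KO LPS and WT LPS was 0.69 ± 0.26, adjusted p = 0.0749, and DESeq2 called it. Rrm2, the small subunit, ranged from 5.04 to 20.6 TMM-scaled CPM over the 12 libraries and Tyms, thymidylate synthase, from 2.76 to 11.1, with no call by edgeR in the 4 comparisons.

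Transcription factors of the cycle were led by E2f2 (chr4:136172394-136196057, plus strand), an activating E2F factor, which had 14.1, 24.2 and 32.4 TMM-scaled CPM in KO LPS libraries (as labelled) and 2.78, 4.32 and 6.84 in WT LPS libraries. For E2f2, values were 1.65, 2.02 and 4.69 in libraries labelled KO medium and 19.1, 10.9 and 20.5 in libraries labelled WT medium. The libraries labelled KO LPS and WT medium did not overlap with those labelled WT LPS and KO medium. It was higher in labelled KO LPS than in WT LPS (log2 fold 2.34 ± 0.49 (SE), edgeR adjusted p = 0.00559) and than in KO medium (log2 fold 3.08 ± 0.51 (SE), edgeR adjusted p = 0.00123), lower in KO medium than in WT medium (log2 fold -2.59 ± 0.50 (SE), edgeR adjusted p = 0.00329) and lower in WT LPS than in WT medium (log2 fold -1.85 ± 0.48 (SE), edgeR adjusted p = 0.0191). The E2f2 call in WT LPS over WT medium was lost without any 1 of WT LPS 1, WT medium 1, WT medium 3 (adjusted p = 0.057 to 0.0649).

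E2f1, the other activating E2F factor among the members, had 22.3, 21.5 and 26.5 TMM-scaled CPM in KO LPS libraries (as labelled) and 16.2, 28.2 and 10.6 in WT LPS libraries. For E2f1, values were 11.9, 11.3 and 10.7 in libraries labelled KO medium and 21.3, 21.9 and 19.1 in libraries labelled WT medium. The library labelled WT LPS 2 was the highest of its group by a wide margin. E2f1 was higher in labelled KO LPS than in labelled KO medium (log2 fold 1.05 ± 0.32 (SE), edgeR adjusted p = 0.0263), with 0.35 ± 0.31, adjusted p = 0.449 in labelled KO LPS over WT LPS. The E2f1 call in KO LPS over KO medium was lost without any 1 of KO LPS 2, KO LPS 3, KO medium 1, KO medium 2, KO medium 3 (adjusted p = 0.0577 to 0.0856). E2f1 also lost this call with the Xist covariate (adjusted p = 0.0699). In labelled KO medium over WT medium it was -0.87 ± 0.32, adjusted p = 0.0602 by edgeR, where the libraries did not overlap and DESeq2 called it lower. Foxm1, which drives mitotic genes, had 3.62, 8.09 and 13.1 in labelled KO LPS, 2.26, 2.26 and 5.13 in labelled WT LPS, 2.75, 1.51 and 5.20 in labelled KO medium and 3.29, 3.89 and 5.01 in labelled WT medium, and passed in none of the 4 by edgeR, while DESeq2 called it in labelled KO LPS over KO medium. Mybl2 behaved the same way in its calls, with levels from 0.606 to 8.58 TMM-scaled CPM.

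Myc (chr15:61985391-61990374, plus strand), a growth-linked factor, had 51.4, 10.1 and 14.5 TMM-scaled CPM in KO LPS libraries (as labelled) and 6.69, 9.59 and 16.0 in WT LPS libraries. For Myc, values were 7.31, 4.84 and 13.2 in libraries labelled KO medium and 7.23, 50.2 and 8.56 in libraries labelled WT medium. A single library stood out in each of 2 groups, KO LPS 1 and WT medium 2, and the other 10 lay between 4.84 and 16.0. The difference was 1.24 ± 0.79, adjusted p = 0.276 in labelled KO LPS over WT LPS and -1.37 ± 0.80, adjusted p = 0.227 in labelled KO medium over WT medium. Without KO LPS 1 and WT medium 2, Myc was 0.16 with adjusted p = 0.809 in the first of these and 0.03 with adjusted p = 0.959 in the second, where the sign changed.

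**Figure D2:**
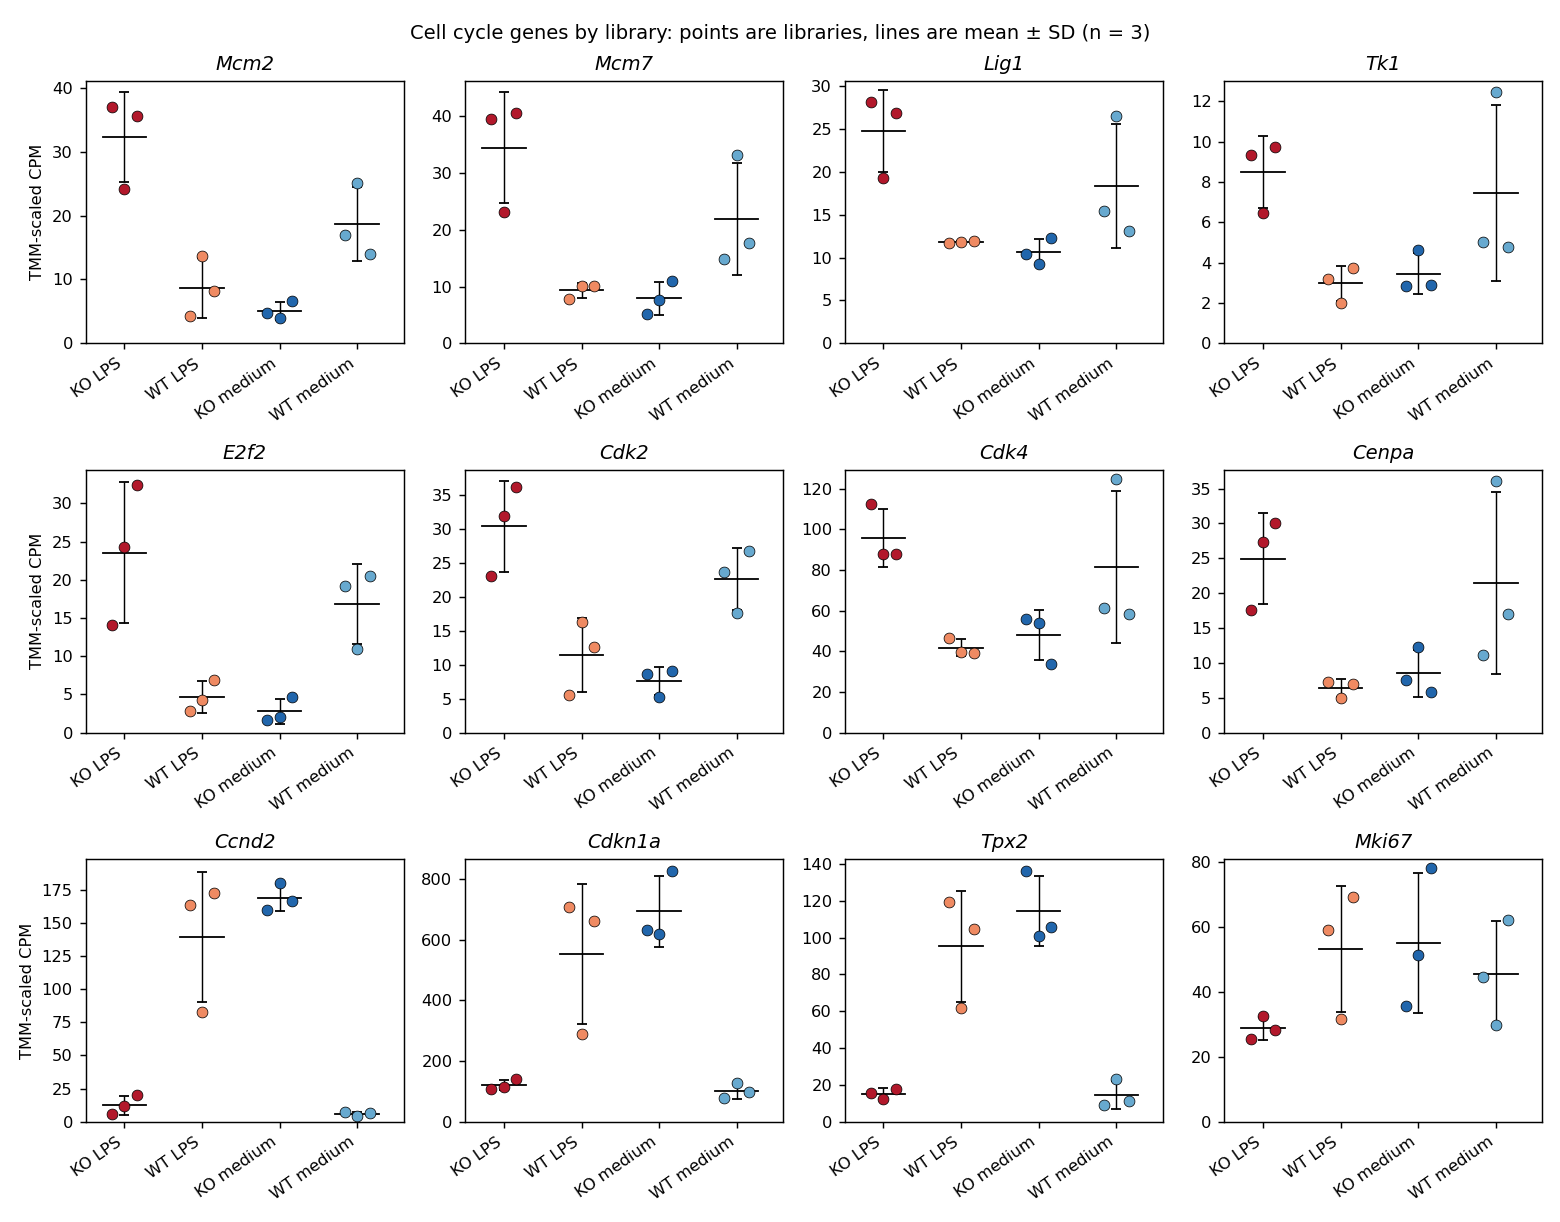
TMM-scaled CPM of 12 members (vertical axis) by labelled group (horizontal axis): points are libraries, long lines are means and bars are SD (n = 3). Mcm2, Mcm7, Lig1, Tk1, E2f2, Cdk2, Cdk4 and Cenpa have their 3 points labelled KO LPS above all 3 labelled WT LPS. Ccnd2, Cdkn1a and Tpx2 have them below, and in Mki67 the points of these groups overlap.

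Cyclin D2, Ccnd2 (chr6:127125162-127152193, minus strand), a partner of Cdk4 and Cdk6, had the largest folds among the 52 members. It had 5.66, 11.7 and 19.9 TMM-scaled CPM in KO LPS libraries (as labelled) and 163, 83.0 and 172 in WT LPS libraries. For Ccnd2, values were 160.0, 180.2 and 167 in libraries labelled KO medium and 6.93, 4.09 and 6.77 in libraries labelled WT medium. The libraries labelled KO LPS and WT medium lay between 4.09 and 19.9, and those labelled WT LPS and KO medium between 83.0 and 180.2. It fell to 12.4 ± 7.15 TMM-scaled CPM in labelled KO LPS, against 139.6 ± 49.2 in labelled WT LPS (SD, n = 3 each; log2 fold -3.49 ± 0.46 (SE), edgeR adjusted p = 0.000416). It was higher in labelled KO medium than in labelled WT medium (log2 fold 4.83 ± 0.49 (SE), edgeR adjusted p = 7.77e-05), with 169 ± 10.3 TMM-scaled CPM in labelled KO medium and 5.93 ± 1.59 in labelled WT medium. Labelled WT LPS over WT medium gave log2 fold 4.55 ± 0.48 (SE), edgeR adjusted p = 0.000131, and labelled KO LPS over KO medium gave log2 fold -3.76 ± 0.46 (SE), edgeR adjusted p = 0.000232.

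The other D cyclins differed from Ccnd2. Ccnd3 had 35.3, 76.8 and 100.2 TMM-scaled CPM in KO LPS libraries (as labelled) and 101, 99.7 and 87.1 in WT LPS libraries. For Ccnd3, values were 122, 91.4 and 71.7 in libraries labelled KO medium and 34.1, 28.9 and 30.8 in libraries labelled WT medium. Ccnd3 was higher in labelled KO medium than in WT medium (log2 fold 1.60 ± 0.35 (SE), edgeR adjusted p = 0.00591) and in labelled WT LPS than in WT medium (log2 fold 1.62 ± 0.35 (SE), edgeR adjusted p = 0.00738). The first call was lost by library size only (adjusted p = 0.103). Ccnd3 overlaps Bysl and has a pseudogene copy, Ccnd3-ps. Ccnd1, the cyclin that M-CSF is known to induce, had 224, 13.7 and 13.7 TMM-scaled CPM in KO LPS libraries (as labelled) and 69.6, 223 and 70.3 in WT LPS libraries. For Ccnd1, values were 93.6, 104 and 154 in libraries labelled KO medium and 30.1, 143 and 24.8 in libraries labelled WT medium. Its values spread widely inside groups, and it was not called in any of the 4 comparisons by edgeR, with -0.53 ± 1.00, adjusted p = 0.737 in labelled KO LPS over WT LPS (95% interval -2.72 to 1.65). Without KO LPS 1 and WT medium 2 it was -3.20 with adjusted p = 0.00234 in that comparison, and 2.03 with adjusted p = 0.0144 in labelled KO medium over WT medium.

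Cdk2 (chr10:128697939-128705031, minus strand), the partner of cyclins E and A, had 23.1, 31.9 and 36.2 TMM-scaled CPM in KO LPS libraries (as labelled) and 5.56, 16.3 and 12.6 in WT LPS libraries. For Cdk2, values were 8.57, 5.25 and 9.03 in libraries labelled KO medium and 23.6, 17.6 and 26.7 in libraries labelled WT medium. Cdk2 was higher in labelled KO LPS than in WT LPS (1.40 ± 0.38, adjusted p = 0.0206) and than in KO medium (1.99 ± 0.39, adjusted p = 0.00313), and lower in labelled KO medium than in WT medium (-1.57 ± 0.39, adjusted p = 0.0118). The Cdk2 call in KO LPS over WT LPS was lost without any 1 of KO LPS 2, KO LPS 3, WT LPS 1, WT LPS 3 (adjusted p = 0.0549 to 0.0741). Cdk4 had 112, 87.7 and 87.7 TMM-scaled CPM in KO LPS libraries (as labelled) and 46.6, 39.5 and 39.2 in WT LPS libraries. For Cdk4, values were 55.9, 54.1 and 33.8 in libraries labelled KO medium and 61.3, 125 and 58.4 in libraries labelled WT medium. Cdk4 was called in labelled KO LPS over WT LPS (1.20 ± 0.32, adjusted p = 0.0195) and over KO medium (1.00 ± 0.32, adjusted p = 0.0349). The Cdk4 call in KO LPS over WT LPS was lost without WT LPS 3 (adjusted p = 0.0848). The Cdk4 call in KO LPS over KO medium was lost without any 1 of KO LPS 1, KO LPS 2, KO LPS 3, KO medium 1, KO medium 2, KO medium 3 (adjusted p = 0.064 to 0.12). Cdk2 overlaps Pmel and Cdk4 overlaps Tspan31. Ccne1, an E cyclin, was higher in labelled KO medium than in WT medium (1.24 ± 0.37, adjusted p = 0.0278) and lower in labelled KO LPS than in KO medium (-1.10 ± 0.37, adjusted p = 0.0399), and by library size only both missed the threshold at adjusted p = 0.325 and 0.41. The Ccne1 call in KO medium over WT medium was lost without any 1 of KO medium 1, KO medium 2, WT medium 1, WT medium 3 (adjusted p = 0.0619 to 0.123). Ccne1 also lost this call with the Xist covariate (adjusted p = 0.0864). The Ccne1 call in KO LPS over KO medium was lost without any 1 of KO LPS 1, KO LPS 2, KO LPS 3, KO medium 1, KO medium 2 (adjusted p = 0.067 to 0.142), and with the Xist covariate (adjusted p = 0.144). Ccne2 and Cdk6 were called nowhere, and Cdk6 lay between 31.2 and 63.4 TMM-scaled CPM.

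Cdkn1a (chr17:29090976-29100727, plus strand), which encodes the kinase inhibitor p21, had 109, 114 and 140.1 TMM-scaled CPM in KO LPS libraries (as labelled) and 709, 288 and 664 in WT LPS libraries. For Cdkn1a, values were 633, 619.7 and 828 in libraries labelled KO medium and 77.6, 128 and 97.1 in libraries labelled WT medium. The libraries labelled WT LPS and KO medium lay above all 6 labelled KO LPS or WT medium, with WT LPS 2 the lowest of the higher set. It was lower in labelled KO LPS than in WT LPS (log2 fold -2.19 ± 0.36 (SE), edgeR adjusted p = 0.00147) and than in KO medium (log2 fold -2.52 ± 0.36 (SE), edgeR adjusted p = 0.000555), and higher in KO medium than in WT medium (log2 fold 2.78 ± 0.36 (SE), edgeR adjusted p = 0.000334) and in WT LPS than in WT medium (log2 fold 2.46 ± 0.36 (SE), edgeR adjusted p = 0.000827). Its group means were 121 ± 16.7 in labelled KO LPS, 553 ± 231 in labelled WT LPS, 694 ± 117 in labelled KO medium and 101 ± 25.2 in labelled WT medium (TMM-scaled CPM, SD, n = 3 each). Cdkn1b, which encodes p27, another inhibitor, had 13.8, 44.2 and 45.1 TMM-scaled CPM in KO LPS libraries (as labelled) and 20.4, 26.2 and 36.0 in WT LPS libraries. For Cdkn1b, values were 22.3, 24.3 and 28.6 in libraries labelled KO medium and 40.1, 12.0 and 53.0 in libraries labelled WT medium. It was not called in the 4 comparisons (0.32 ± 0.52, adjusted p = 0.688 in labelled KO LPS over WT LPS), and KO LPS 1 and WT medium 2 were its lowest libraries. Without those 2, Cdkn1b was called at -0.95 with adjusted p = 0.0189 in labelled KO medium over WT medium, -0.81 with adjusted p = 0.0492 in WT LPS over WT medium and 0.81 with adjusted p = 0.0338 in KO LPS over KO medium, and was 0.66 with adjusted p = 0.0783 in KO LPS over WT LPS.

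Cyclins of S, G2 and M phase and their kinase gave no call. Ccna2 had 8.86, 10.8 and 17.6 TMM-scaled CPM in KO LPS libraries (as labelled) and 3.99, 4.93 and 12.3 in WT LPS libraries. For Ccna2, values were 5.03, 6.36 and 12.5 in libraries labelled KO medium and 7.31, 16.2 and 9.32 in libraries labelled WT medium. Cdk1, the mitotic kinase, had 16.8, 18.7 and 25.6 TMM-scaled CPM in KO LPS libraries (as labelled) and 12.0, 8.51 and 19.5 in WT LPS libraries. For Cdk1, values were 10.9, 14.0 and 20.5 in libraries labelled KO medium and 10.2, 27.6 and 13.9 in libraries labelled WT medium. In each of the 4 comparisons 0 of 4 members (Ccna2, Ccnb1, Ccnb2 and Cdk1) were called by edgeR or by DESeq2, and 0 of 4 had an unadjusted p under 0.05 by either tool. Of all genes tested, edgeR called between 18.3% (WT LPS over WT medium) and 30.4% (KO LPS over KO medium). The folds in labelled KO LPS over WT LPS were positive for all 4, 0.81 for Ccna2, 0.80 for Ccnb1, 0.97 for Ccnb2 and 0.61 for Cdk1, with 95% intervals for Cdk1 of -0.30 to 1.53 and for Ccna2 of -0.30 to 1.92. Ccnb1 and Ccnb2 have pseudogene copies.

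Mitotic kinases and the spindle checkpoint had 1 of 7 members called in labelled KO LPS over WT LPS and 3 of 7 in labelled KO LPS over KO medium. These were 14.3% and 42.9%, where 24.1% and 30.4% of all genes tested were called. Aurkb, the kinase of the chromosomal passenger complex, had 6.50, 12.2 and 20.5 TMM-scaled CPM in KO LPS libraries (as labelled) and 2.17, 2.96 and 6.25 in WT LPS libraries. For Aurkb, values were 2.75, 2.72 and 6.48 in libraries labelled KO medium and 7.69, 4.51 and 9.11 in libraries labelled WT medium. In the group labelled KO LPS, libraries 2 and 3 were the highest of all 12 and library 1 was near the others (log2 fold 1.78 ± 0.54 (SE), edgeR adjusted p = 0.0332). The Aurkb call in KO LPS over WT LPS was lost without any 1 of KO LPS 2, KO LPS 3, WT LPS 1, WT LPS 2 (adjusted p = 0.0742 to 0.146). Aurkb also lost this call with the Xist covariate (adjusted p = 0.0689). Bub1b, a checkpoint protein that inhibits the APC/C, had 6.76, 12.2 and 20.3 TMM-scaled CPM in KO LPS libraries (as labelled) and 3.99, 6.34 and 6.99 in WT LPS libraries. For Bub1b, values were 2.44, 3.33 and 5.11 in libraries labelled KO medium and 9.81, 7.49 and 10.4 in libraries labelled WT medium. Bub1b was higher in labelled KO LPS than in KO medium (log2 fold 1.85 ± 0.43 (SE), edgeR adjusted p = 0.00778) and lower in KO medium than in WT medium (log2 fold -1.35 ± 0.43 (SE), edgeR adjusted p = 0.0367). The Bub1b call in KO medium over WT medium was lost without any 1 of KO medium 1, KO medium 2, WT medium 1, WT medium 3 (adjusted p = 0.0832 to 0.112). Bub1b also lost this call with the Xist covariate (adjusted p = 0.133).

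Cdc20, the activator of the APC/C, had 6.66, 9.06 and 15.0 TMM-scaled CPM in KO LPS libraries (as labelled) and 2.34, 1.83 and 6.17 in WT LPS libraries. For Cdc20, values were 2.52, 1.51 and 4.94 in libraries labelled KO medium and 2.65, 7.08 and 4.55 in libraries labelled WT medium. Cdc20 was called in labelled KO LPS over KO medium (1.77 ± 0.59, adjusted p = 0.0399). Plk1, a kinase of mitotic entry and spindle assembly, had 4.25, 8.40 and 12.8 in labelled KO LPS, 1.74, 2.44 and 5.50 in labelled WT LPS, 2.59, 2.72 and 5.54 in labelled KO medium and 3.45, 6.59 and 4.51 in labelled WT medium and was not called by edgeR, while DESeq2 called it in KO LPS over WT LPS. Bub1, Aurka and Birc5 were not called by edgeR in the 4 comparisons, with ranges over the 12 libraries of 1.06 to 4.80, 3.73 to 11.8 and 2.40 to 17.0 TMM-scaled CPM. The Aurkb call in KO LPS over KO medium was lost without any 1 of KO LPS 2, KO LPS 3, KO medium 1, KO medium 2 (adjusted p = 0.07 to 0.147), and with the Xist covariate (adjusted p = 0.162). The Cdc20 call in KO LPS over KO medium was lost without any 1 of KO LPS 2, KO LPS 3, KO medium 1, KO medium 2 (adjusted p = 0.0753 to 0.146).

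Myeloid progenitor markers were, like Aurkb and Bub1b, highest in KO LPS 2 and 3. Their sum over 8 genes (Kit, Cd34, Mpo, Elane, Prtn3, Ctsg, Flt3 and Myb) was 33.1, 423 and 961 TMM-scaled CPM in KO LPS libraries (as labelled), 20.7, 36.7 and 68.1 in labelled WT LPS, 32.7, 32.9 and 97.6 in labelled KO medium and 70.5, 21.6 and 62.5 in labelled WT medium. Of the 8, 5 were called higher in labelled KO LPS over WT LPS (62.5%, against 10.4% of all genes tested). None of the 8 was at 0 in any library. B cell markers (8 genes) summed to 10.7, 69.5 and 72.8 in KO LPS libraries 1, 2 and 3 (as labelled), against 5.36 to 15.7 in the other 9 libraries, with Vpreb3 at 0 in 6 libraries and Igll1 in 9. Neutrophil markers summed to 1082 to 5330.3 in labelled KO LPS, 1629 to 6077 in labelled WT LPS, 1999 to 4496 in labelled KO medium and 751 to 1012 in labelled WT medium. Stromal markers summed to 28.2 to 77.5 in labelled KO LPS and 57.9 to 370.4 in labelled WT LPS, where 4 of 10 were called lower in KO LPS (40%, against 13.7% of all genes tested). Erythroid and megakaryocyte markers summed to 596, 322 and 484 in labelled KO LPS, 165, 201 and 539 in labelled WT LPS, 191, 348 and 575 in labelled KO medium and 78.5, 392 and 204 in labelled WT medium. Of the 4 tested, 2, Itga2b and Gp9, were called higher in labelled KO LPS than in WT LPS (50%, against 10.4% of all genes tested). The part of these other cells in the members' differences was not tested.

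Chromosome and spindle proteins split. Tpx2 (chr2:152847964-152895321, plus strand), a spindle assembly factor and activator of Aurora A, had 15.7, 12.1 and 17.8 TMM-scaled CPM in KO LPS libraries (as labelled) and 119, 61.6 and 105 in WT LPS libraries. For Tpx2, values were 136, 101 and 106 in libraries labelled KO medium and 8.90, 23.2 and 11.1 in libraries labelled WT medium. All libraries labelled WT LPS and KO medium exceeded all those labelled KO LPS and WT medium. It was lower in labelled KO LPS than in WT LPS (log2 fold -2.65 ± 0.39 (SE), edgeR adjusted p = 0.000841) and than in KO medium (log2 fold -2.91 ± 0.40 (SE), edgeR adjusted p = 0.000405), and higher in KO medium than in WT medium (log2 fold 2.99 ± 0.40 (SE), edgeR adjusted p = 0.000358) and in WT LPS than in WT medium (log2 fold 2.73 ± 0.39 (SE), edgeR adjusted p = 0.000748). Its direction was thus opposite to that of Aurkb and Cdc20, which act in mitosis as well.

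Cenpa, the centromere histone, had 17.6, 27.3 and 30.0 TMM-scaled CPM in KO LPS libraries (as labelled) and 7.29, 4.98 and 6.91 in WT LPS libraries. For Cenpa, values were 7.47, 12.3 and 5.80 in libraries labelled KO medium and 11.1, 36.1 and 17.0 in libraries labelled WT medium. Cenpa was higher in labelled KO LPS than in WT LPS (1.97 ± 0.45, adjusted p = 0.00843) and than in KO medium (1.55 ± 0.44, adjusted p = 0.0201), and lower in KO medium than in WT medium (-1.33 ± 0.44, adjusted p = 0.043) and in WT LPS than in WT medium (-1.74 ± 0.44, adjusted p = 0.0174). The Cenpa call in KO medium over WT medium was lost without any 1 of KO medium 1, KO medium 3, WT medium 2, WT medium 3 (adjusted p = 0.0638 to 0.129). The Cenpa call in WT LPS over WT medium was lost without WT LPS 3 (adjusted p = 0.0545). The Cenpa call in KO LPS over KO medium was lost without any 1 of KO LPS 2, KO LPS 3, KO medium 1, KO medium 3 (adjusted p = 0.0602 to 0.0802). Without KO LPS 1 and WT medium 2, Cenpa in labelled KO medium over WT medium was -0.77 with adjusted p = 0.102. Cenpe, a kinetochore motor, was lower in labelled KO LPS than in WT LPS (-1.02 ± 0.33, adjusted p = 0.0394) and than in KO medium (-1.36 ± 0.33, adjusted p = 0.0092), and by library size only missed the threshold at adjusted p = 0.248 and 0.123. The Cenpe call in KO LPS over WT LPS was lost without any 1 of KO LPS 2, KO LPS 3, WT LPS 1, WT LPS 3 (adjusted p = 0.0942 to 0.15).

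Mki67 (chr7:135689784-135716361, minus strand), the Ki-67 protein that coats mitotic chromosomes and is a standard marker of cycling cells, had 25.4, 32.4 and 28.3 TMM-scaled CPM in KO LPS libraries (as labelled) and 59.1, 31.5 and 69.1 in WT LPS libraries. For Mki67, values were 35.5, 51.5 and 78.2 in libraries labelled KO medium and 44.5, 29.9 and 62.2 in libraries labelled WT medium. The Mki67 groups labelled KO LPS and WT LPS overlapped through WT LPS 2, and those labelled KO LPS and KO medium did not overlap. None of the 4 comparisons was called, with -0.89 ± 0.38, adjusted p = 0.106 in labelled KO LPS over WT LPS (95% interval -1.71 to -0.07), -0.94 ± 0.38, adjusted p = 0.0793 over KO medium, 0.27 ± 0.37, adjusted p = 0.624 in labelled KO medium over WT medium and 0.22 ± 0.37, adjusted p = 0.729 in labelled WT LPS over WT medium. Without WT LPS 2 the first value was -1.16 with adjusted p = 0.0403. This was the only 1 of 14 alternatives that called Mki67 in KO LPS over WT LPS, and the highest adjusted p was 0.534. Mcm2 had its highest group mean in labelled KO LPS, where Mki67 was 28.7 ± 3.53 TMM-scaled CPM against 53.2 ± 19.4 in labelled WT LPS (SD, n = 3 each). Top2a and Kif11, a topoisomerase and a spindle motor, were called in none of the 4 by edgeR.

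**Figure D3:**
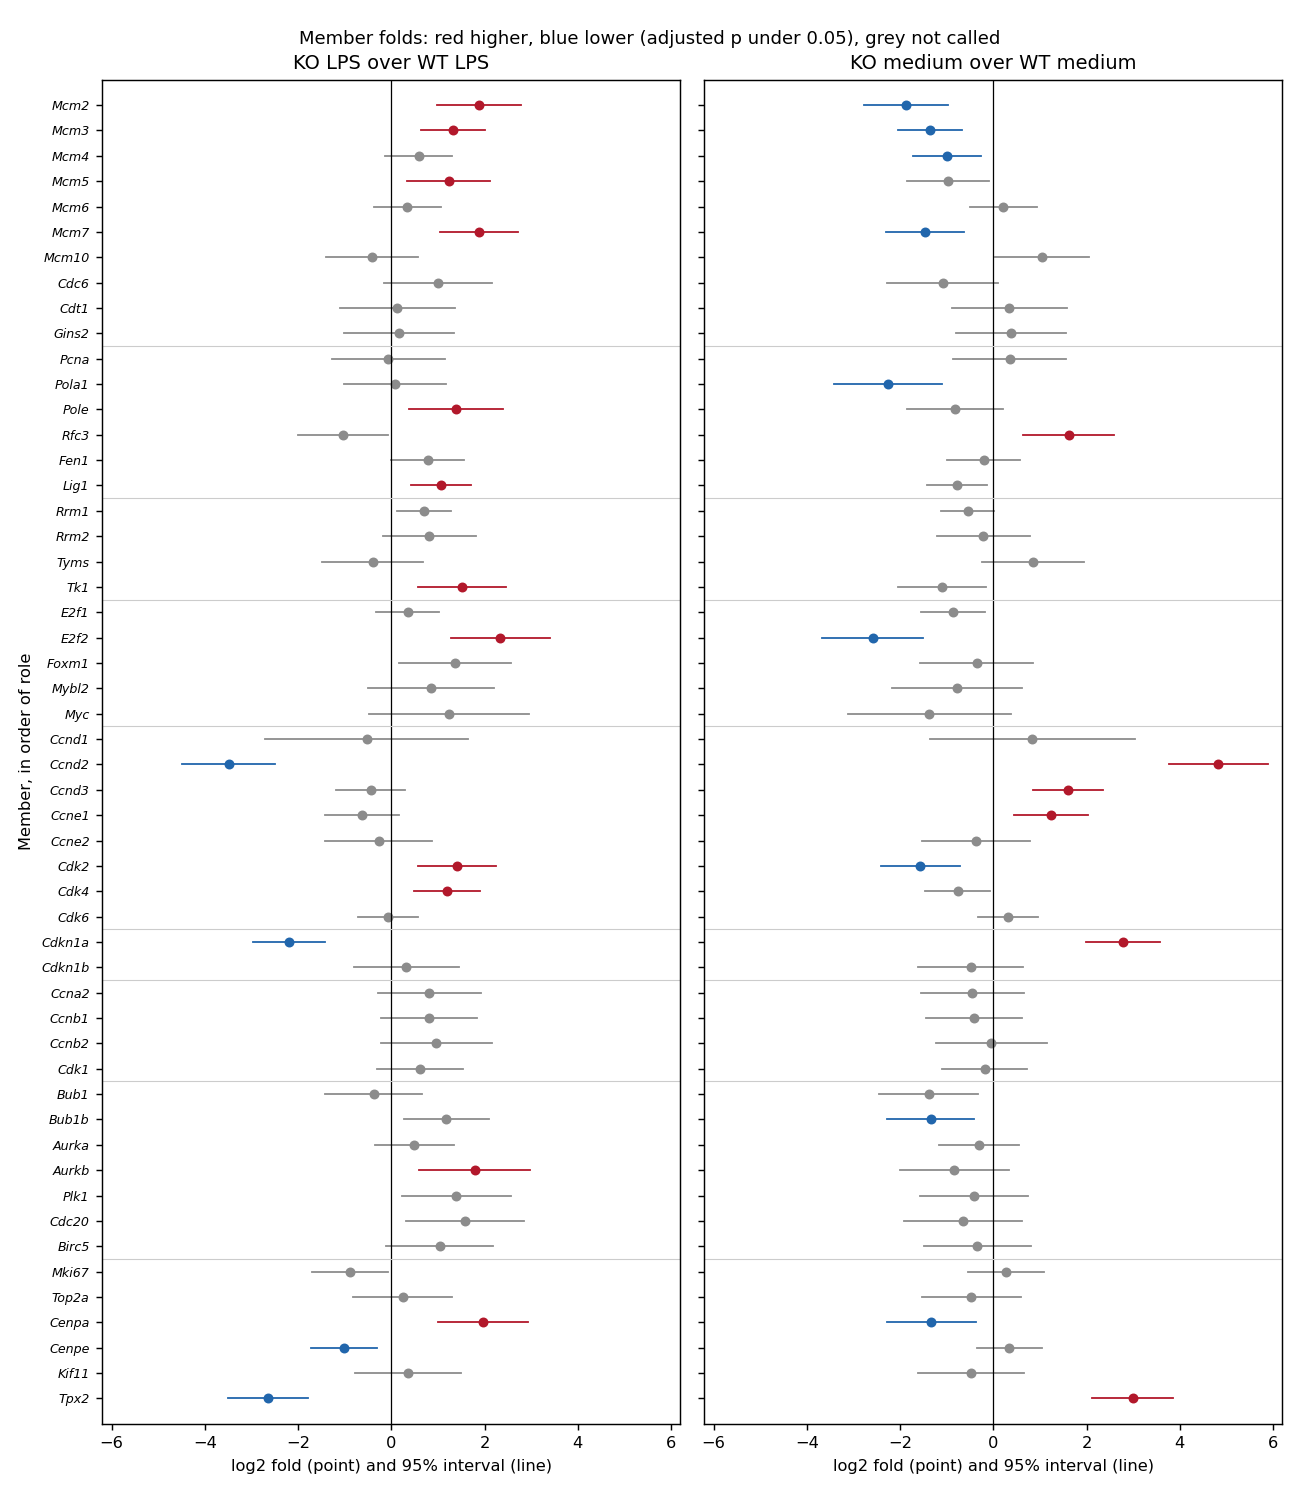
Log2 folds (horizontal axis) of the 52 members (vertical axis, in order of role) with 95% intervals, in labelled KO LPS over WT LPS (left) and labelled KO medium over WT medium (right): points are folds, lines are intervals, red is called higher, blue called lower and grey not called. Mcm2, Mcm3, Mcm7, E2f2, Cdk2 and Cenpa are red at left and blue at right, Ccnd2, Cdkn1a and Tpx2 are blue at left and red at right, and Mki67 and Cdk1 are grey in both.

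Differences inside groups were as large as those between them for some members. In the libraries labelled KO LPS 1 and WT medium 2, Ccnd1 was 224 and 143 TMM-scaled CPM, against 13.7 to 30.1 in the other 4 libraries of those groups. Myc was 51.4 and 50.2, against 7.23 to 14.5 in those 4, and Pcna was 557 and 552, against 146 to 189. Cdt1, the licensing factor, was 83.5 and 72.5, against 16.1 to 27.5, and Cdkn1b was 13.8 and 12.0, against 40.1 to 53.0. These are descriptions chosen after the values were seen, with no test, since the libraries share no label of their own. Xist, the X inactivation transcript of female cells, was 0.0524 and 0.278 TMM-scaled CPM in these 2 libraries and 77.4 to 434.8 in the 4 others. Xist was 0.236, 0 and 0.256 in libraries labelled KO medium and 0.0868, 430.9 and 0.149 in libraries labelled WT LPS. The labelled groups were therefore not balanced for Xist, and the comparisons between them mix label and Xist state. A fit with an Xist covariate was among the alternatives.

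**Figure D4:**
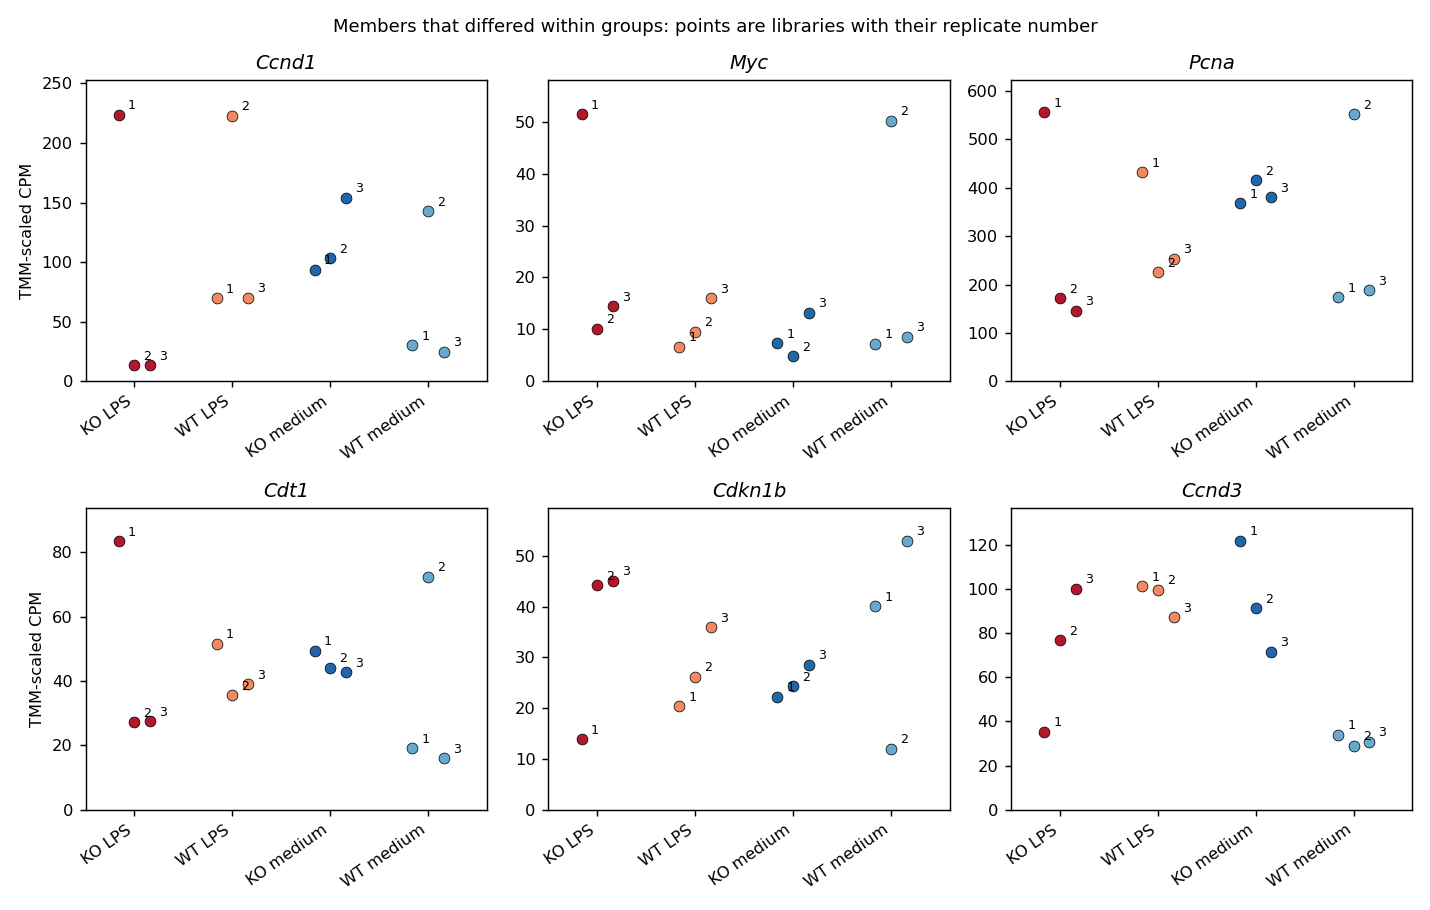
TMM-scaled CPM (vertical axis) of 6 members by labelled group (horizontal axis), with each library as a point and its replicate number beside it. KO LPS 1 and WT medium 2 stand together at high Ccnd1, Myc, Pcna and Cdt1 and at low Cdkn1b, away from the other 2 libraries of their groups.

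The difference between the labelled KO over WT contrast in LPS and in medium was tested as an interaction. It was higher for 19 members and lower for 7 of 52, where 20.5% of all genes tested were called higher and 20.6% lower, 41.1% in all, and by library size only for 36 and 4, where 47.9% and 11.2% of all genes were, 59.1% in all. The largest values were at Ccnd2 (log2 fold -8.31 ± 0.67 (SE), edgeR adjusted p = 3.85e-06), Tpx2 (log2 fold -5.64 ± 0.56 (SE), edgeR adjusted p = 1.66e-05), Cdkn1a (log2 fold -4.98 ± 0.51 (SE), edgeR adjusted p = 2.08e-05) and E2f2 (log2 fold 4.93 ± 0.70 (SE), edgeR adjusted p = 0.000198). For Mcm2 it was 3.75 ± 0.59, adjusted p = 0.000377, and for Mki67 -1.16 ± 0.53, adjusted p = 0.0996. Cdc6 and Rrm1 were called by the interaction (2.10 ± 0.76, adjusted p = 0.0437 and 1.25 ± 0.37, adjusted p = 0.0185) while none of the 4 comparisons called them by edgeR.

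Further comparisons set groups across both labels. In labelled KO medium against labelled WT LPS, 0 members and 0 of 13773 genes were called by edgeR (0% of genes), 270 genes and 1 member had an unadjusted p under 0.05, and DESeq2 called 0 genes and 0 members, with 392 genes under 0.05. That member was E2f1, at -0.70 ± 0.32, adjusted p = 0.95. The values were 0.28 ± 0.41, adjusted p = 0.95 for Ccnd2 (95% interval -0.63 to 1.18), 0.33 ± 0.34, adjusted p = 0.95 for Cdkn1a (95% interval -0.42 to 1.07) and -0.79 ± 0.41, adjusted p = 0.95 for Mcm2 (95% interval -1.68 to 0.11). In labelled KO LPS against labelled WT medium, edgeR called 0 genes (0%) and 0 members, with 1135 genes and 5 members at an unadjusted p under 0.05, and DESeq2 called 40 genes and 0 members. Those 5 were Pola1, Ccnd2, Ccnd3, Bub1 and Cenpe. The value was 1.18 ± 0.34, adjusted p = 0.552 for Ccnd3 (95% interval 0.43 to 1.93), and without KO LPS 1 it was 1.50 with adjusted p = 0.0347. Only 2 of 14 alternatives called Ccnd3 there. The labels do not state whether the 3 libraries of a group came from separate animals, so all p-values measure the spread between these libraries. The description codes of WT LPS 1 and WT medium 2 share the number 45 and those of WT LPS 2 and WT medium 3 the number 50, and what the number marks is not stated. With a term for each shared number, WT LPS over WT medium had 5 members higher and 5 lower, and Mcm7 was -1.14 with adjusted p = 0.0641. That fit called 2827 of all genes, 61.3% of them higher, where the main fit called 2526, 64.8% of them higher. A missed threshold does not show that the groups were alike.

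The other genes of the pathway, 75 genes in 3 lists of which 74 were tested, gave 8 higher and 7 lower in labelled KO LPS over WT LPS (10.8% and 9.46%, against 10.4% and 13.7% of all genes). The counts were 7 higher and 10 lower in KO medium over WT medium (9.46% and 13.5%, against 14.0% and 12.3%). They were 7 and 4 in WT LPS over WT medium (9.46% and 5.41%, against 11.9% and 6.46%) and 17 and 7 in KO LPS over KO medium (23% and 9.46%, against 15.1% and 15.3%). Their median log2 folds were 0.47, -0.44, -0.30 and 0.46. Among the 26 other S phase genes, 4 were higher and 0 lower in labelled KO LPS over WT LPS, with Pold1, the catalytic subunit of the lagging strand polymerase, at 1.36 ± 0.29, adjusted p = 0.00601 and Cdc7, the kinase that fires origins, at 1.34 ± 0.43, adjusted p = 0.0396. In labelled KO medium over WT medium 0 were higher and 6 lower, with Pold1 at -1.46 ± 0.29, adjusted p = 0.00384. Pold1 had 17.4, 14.8 and 17.9 TMM-scaled CPM in KO LPS libraries (as labelled) and 6.51, 7.24 and 5.80 in WT LPS libraries. For Pold1, values were 4.56, 5.95 and 3.92 in libraries labelled KO medium and 12.5, 17.6 and 9.65 in libraries labelled WT medium.

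Among the 28 other G2 and M genes, 3 were higher and 1 lower in labelled KO LPS over WT LPS. These were 10.7% and 3.57%, where 10.4% and 13.7% of all genes tested were called, so the higher share was near that of all genes. Cdc25b, a phosphatase that activates Cdk1, had 6.92, 15.0 and 18.3 TMM-scaled CPM in KO LPS libraries (as labelled) and 1.74, 5.64 and 2.83 in WT LPS libraries. For Cdc25b, values were 1.18, 1.31 and 2.05 in libraries labelled KO medium and 13.9, 7.29 and 11.9 in libraries labelled WT medium. Cdc25b was higher in labelled KO LPS (1.96 ± 0.49, adjusted p = 0.0138). Pttg1, which encodes securin, had 27.8, 17.2 and 21.0 TMM-scaled CPM in KO LPS libraries (as labelled) and 245, 70.4 and 192 in WT LPS libraries. For Pttg1, values were 276, 311 and 138 in libraries labelled KO medium and 19.2, 42.7 and 18.9 in libraries labelled WT medium. Pttg1 was lower (-2.94 ± 0.52, adjusted p = 0.00221). Pttg1 thus shared with Tpx2 a high level in the libraries labelled WT LPS and KO medium.

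The other G1, inhibitor and arrest genes, of which 20 were tested, gave 1 higher and 6 lower in labelled KO LPS over WT LPS, and 6 higher and 2 lower in labelled KO medium over WT medium. The shares were 5% and 30%, against 10.4% and 13.7% of all genes tested, and 30% and 10%, against 14.0% and 12.3%. Mdm2, the ubiquitin ligase of p53, was lower in labelled KO LPS than in WT LPS (-2.48 ± 0.47, adjusted p = 0.0032), with 154, 63.0 and 46.9 TMM-scaled CPM in KO LPS libraries (as labelled) and 645, 253 and 573 in WT LPS libraries. For Mdm2, values were 623, 488 and 589.8 in libraries labelled KO medium and 106, 122 and 140.1 in libraries labelled WT medium. Rbl1, which encodes the pocket protein p107, was lower too (-2.21 ± 0.33, adjusted p = 0.000971), and Mxd1, a partner of Max that opposes Myc, was at -3.19 ± 0.66, adjusted p = 0.00556. Cdkn2c, which encodes the inhibitor p18, was higher (1.74 ± 0.33, adjusted p = 0.00342), so inhibitors of the list did not share a direction, and Cdkn2d, which encodes p19, was lower (-1.79 ± 0.49, adjusted p = 0.0216).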

How the data were processed

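RNA from BMDMs was sequenced in 12 libraries. The authors deposited raw counts per gene and a table of FPKM values of the same genes. Reads were mapped to mm10 according to the submitters' processing notes. Which aligner, counter and strand setting were used is not given in the sources used here, while the labels name 2 library kits, 1 of them stranded. The limit on counts of overlapping genes therefore holds for more members than those named above. Among them are Mcm7 (Ap4m1 and Cops6), Lig1 (Zswim9), Cdc20 (Elovl1), Ccna2 (Exosc9), Ccnd2 and Cdkn1a.

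Genes were filtered with filterByExpr (13773 of 54446 kept), scaled by TMM and tested with edgeR 4.0.16 (quasi-likelihood test, 1 fit over all 12 libraries, R 4.3.3), with Benjamini-Hochberg adjustment over all genes tested and a threshold of 0.05. The interaction is the labelled KO minus WT difference in LPS minus that in medium. FPKM served only to compare levels between genes. The script was tested on simulated data. Alternatives were DESeq2 1.42.0 size factors and its Wald test, library size only, no low-count filter, only the groups compared, a replicate block, an Xist covariate and leaving out each library; leaving out KO LPS 1 and WT medium 2 together, and a block on numbers shared by description codes of WT libraries, were chosen after seeing the data. The block was run for WT LPS over WT medium and the interaction, where its terms cancel. The members, chosen by function, and the lists were settled with earlier results of these data known. Full folds are given for Mcm2, Mki67, Ccnd1, Ccnd2, Ccnd3, E2f1, Myc, Cdkn1a, Cdkn1b and the called member of smallest p in each role and comparison; others named were chosen after their values were seen. The floor of 3 counts covers counting error only. Positions are from GRCm38.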

Additional observations from a re-analysis of the deposited data

Results flagged for a closer look

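For 26 of 52 members the labelled KO over WT difference in LPS differed from that in medium by the interaction test (edgeR adjusted p under 0.05), where 41.1% of all genes tested were called. Of these 26 members, 10 fall under the rule for genes with full folds. Their log2 interaction was 3.75 for Mcm2, 1.85 for Lig1, 2.62 for Tk1, 1.22 for E2f1, 4.93 for E2f2, -8.31 for Ccnd2, -2.04 for Ccnd3, -4.98 for Cdkn1a, 2.52 for Bub1b and -5.64 for Tpx2. E2f1 (adjusted p = 0.0439) lost its call in 14 of 20 alternatives, with adjusted p up to 0.0998, and Ccnd3 in 1 of 20, library size only, with adjusted p = 0.258. LPS-responsive genes go against the treatment labels of both KO groups and Nlrc3 goes against the genotype label in KO LPS. Nlrc3 was low in KO medium but also lower in WT LPS than in WT medium (log2 fold -1.89 ± 0.53 (SE), edgeR adjusted p = 0.0268). The interaction values above follow the labels as given.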

How the results depend on the processing

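No member call in the 4 comparisons or the interaction changed direction under any alternative run, and 8 of 16 calls in KO LPS over WT LPS, 8 of 15 in KO medium over WT medium, 4 of 7 in WT LPS over WT medium, 10 of 22 in KO LPS over KO medium and 18 of 26 in the interaction held under every one. The cause of each change below was not tested. With library size only, KO LPS over WT LPS had 24 members higher, KO medium over WT medium 6644 genes called and 3 members higher and 22 lower, WT LPS over WT medium 4233 genes and 14 members lower, KO LPS over KO medium 6494 genes and 31 members higher and 3 lower, and the interaction 36 members higher and 4 lower. With only the groups compared, 2185 genes were called in KO LPS over WT LPS and 1590 in WT LPS over WT medium, and no interaction fit exists. In that setting Mcm4, Mcm5, Mcm7, Pole, Cdk2, Aurkb, Cenpa and Cenpe lost a call in the 4 comparisons. The Xist covariate removed calls of Mcm4, Rfc3, E2f1, Ccne1, Aurkb and Bub1b there, and the replicate block those of Mcm4, Mcm5, Mcm7, Tk1, Ccne1, Cenpa and Cenpe. Calls of Pole, Ccne1 and Cenpe were lost without the low-count filter. In WT LPS over WT medium, members lower numbered 5 with DESeq2 size factors, 7 with DESeq2, 5 without the low-count filter and 7 with the Xist covariate. Over all genes these settings called 2548, 3541, 2647 and 3536, of which 62.2%, 56.8%, 61.5% and 58.6% were higher. The main fit called 2526, of which 64.8% were higher, so calls of all genes moved too. Without the filter 3 genes were called in KO medium over WT LPS and 99 in KO LPS over WT medium, where DESeq2 called 40. Without KO LPS 1 and WT medium 2, KO LPS over WT LPS had 5062 genes and 8 members lower, KO medium over WT medium 5663 genes and 12 members higher, WT LPS over WT medium 3712 genes and 8 members higher, KO LPS over KO medium 6157 genes and 19 members higher, the interaction 7346 genes and 12 members lower, and KO LPS over WT medium 249 genes and 1 member higher. Gene counts are in either direction, and member counts of the other direction are not listed. Of the genes called, 43.3%, 51.6%, 58.0%, 48.1%, 48.0% and 31.3% were higher, in the order given. In the main fit the gene counts were 3324, 3620, 2526, 4186, 5657 and 0 in the same order, so calls rose over all genes as well as in the members.

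Leaving out 1 library at a time, called genes ranged from 1810 to 4093 in KO LPS over WT LPS, 2196 to 4735 in KO medium over WT medium, 1384 to 3042 in WT LPS over WT medium, 2543 to 5095 in KO LPS over KO medium, 4709 to 6296 in the interaction, 0 to 2 in KO medium over WT LPS and 0 to 245 in KO LPS over WT medium. In the same order, members higher ranged from 6 to 14, 4 to 8, 4 to 6, 7 to 16, 16 to 23, 0 to 0 and 0 to 1, and members lower from 3 to 6, 5 to 8, 1 to 4, 4 to 6, 6 to 9, 0 to 0 and 0 to 0. Of 18 pairs of libraries with the same replicate number in 2 groups, 8 had deviations correlated above 0.1 (range -0.679 to 0.639). Deviations from a mean of 3 libraries depend on each other, so this count cannot decide whether the replicate numbers pair the libraries. With a replicate block, called genes numbered 2898, 3164, 2139, 3620, 5285, 0 and 0, and members 15 higher and 3 lower, 6 and 7, 4 and 2, 17 and 5, and 20 and 6 in the first 5. Of the genes called in those 5, 41.8%, 55.2%, 67.5%, 48.5% and 49.8% were higher. Deviations of the WT LPS and WT medium libraries that share a number in their description codes correlated at 0.627 (number 45, Xist at 0.0868 and 0.278 TMM-scaled CPM) and 0.475 (number 50, Xist at 430.9 and 434.8), which is a hint from the data and not from the design. A block on these numbers, chosen after seeing the data, gave 2827 genes, 5 members higher and 5 lower in WT LPS over WT medium and 6066 genes, 18 and 8 in the interaction. Of those genes 61.3% and 50.2% were higher. Members with few counts, from 6 in a library for Cdc6 and Mybl2, are the least precise.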
